A study of Mus musculus with 8 samples.

Results

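The 35 genes described here encode enzymes and regulators of fatty acid, sterol and phospholipid synthesis. They were taken from a list of gene symbols, and each gene was read from its brightest probe by the mean over 8 arrays. All 35 were found among the 24306 named genes of the array. They comprise 4 regulators, 12 enzymes of sterol synthesis, 11 of fatty acid synthesis, 6 of phospholipid synthesis and 2 enzymes that handle acyl-CoA.

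The arrays measured RNA from sorted epithelial cells of mouse lung by 1-colour hybridisation, and the values are log2 signals. Control mice (C) carried SftpCreERT2/+; Tomatoflox/flox, and experimental mice (E) carried Fgfr2bflox/flox in addition, so that both genotypes held the Sftpc-driven, tamoxifen-dependent Cre and the tdTomato reporter. All mice, aged 9 to 12 weeks and of both sexes, received tamoxifen at 1 mg/ml in drinking water. Cells with high tdTomato are called AT2s and cells with low tdTomato are called IAAPs, the names used in the study, although the labels give AT2 as the cell type of every sample. E-AT2s and E-IAAPs were each collected on days 4, 7 and 14, and C-AT2s and C-IAAPs on day 7 only, with 1 array for each of the 8 groups. The labels do not say whether cells of several mice were pooled for an array. Days therefore stood in for replicates, each lone control was assumed to vary like the experimental groups, and p-values measure only the spread between these arrays. In bulk RNA, fewer cells of a type and less RNA per cell cannot be told apart.

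Type 2 alveolar cells make surfactant, a film rich in saturated phosphatidylcholine that keeps the alveoli open. Its fatty acids come in part from synthesis within the cell, in which acetyl-CoA is carboxylated, extended by fatty acid synthase, and desaturated or elongated before it is joined to glycerol and choline. Transcription of these enzymes and of those of cholesterol synthesis is driven by the SREBP factors. SCAP escorts the SREBP precursors from the endoplasmic reticulum to the Golgi, and INSIG proteins hold them back when sterols are plentiful.

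The brighter of 2 probes for Fgfr2, the targeted gene, read 12.45 in C-AT2s, 11.68 to 12.10 in E-AT2s, 11.72 in C-IAAPs and 10.87 to 11.83 in E-IAAPs. Where these probes lie relative to the deleted part is not given in the sources used here, so they do not check the deletion. One control array differed from the rest, although the distribution of spot signals was nearly the same on all 8 arrays (quantiles within 0.0058). A background level was set on each array as the 95 percentile of 1401 sensory receptor genes, and it was 8.67 on the C-IAAP array against 6.45 to 7.28 on the other 7. The C-IAAP array correlated with the others at r = 0.845 to 0.876 over all genes, while the others correlated with each other at 0.915 to 0.971. All 11 AT2 markers were above background on every array, at list medians between 13.4 and 14.3. Of 19 alveolar macrophage markers, the E-IAAP arrays held 15 to 17 above background, the AT2 arrays 8 to 11 and the C-IAAP array 11. Of 6 ciliated cell markers, 6 were above background on the E-IAAP day 14 array, 4 on the earlier E-IAAP arrays and 2 or 3 on the rest. Of the 35 lipid genes, 28 were above background on all 8 arrays and 6 on 6 or 7 arrays. Elovl6, which elongates palmitate, was below background on all 8, so that its values are bounds.

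Promoters are shown for 5 members on which the results below turn. Of the 35 genes, 29 had an entry in the RefSeq promoter table (GRCm38.p6), and only bases before the transcription start of an entry were searched, on both strands. For Lss the entry's start lies past the annotated start of the gene, 76531565, so part of its printed stretch lies within the gene. The motifs were TCACNCCAC, a sterol regulatory element, CCAAT, the box bound by NF-Y, and CACGTG, an E-box that SREBP factors can also bind. No motif was found to overlap another in the stretches printed, where capitals mark the motifs in either orientation.
Hmgcs1, chr13:119690161-119690350, plus strand: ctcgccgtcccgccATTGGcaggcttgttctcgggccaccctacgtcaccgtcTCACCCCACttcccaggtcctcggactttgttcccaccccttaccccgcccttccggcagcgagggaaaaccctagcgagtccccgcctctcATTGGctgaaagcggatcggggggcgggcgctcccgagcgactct
Insig1, chr5:28071292-28071411, plus strand: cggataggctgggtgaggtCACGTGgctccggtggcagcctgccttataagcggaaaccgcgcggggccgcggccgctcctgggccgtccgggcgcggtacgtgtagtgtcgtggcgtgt
Cyp51, chr5:4104698-4104757, minus strand: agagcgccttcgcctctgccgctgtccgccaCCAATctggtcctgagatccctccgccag
Lss, chr10:76531525-76531604, plus strand: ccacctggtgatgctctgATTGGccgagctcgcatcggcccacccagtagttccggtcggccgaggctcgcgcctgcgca
Pcyt1a, chr16:32430781-32430920, plus strand: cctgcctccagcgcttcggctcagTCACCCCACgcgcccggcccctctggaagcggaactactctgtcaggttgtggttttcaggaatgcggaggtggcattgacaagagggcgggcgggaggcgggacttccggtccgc

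The CCAAT box was present before the start of 9 of 9 sterol genes with an entry, against 37.5% of all 27025 genes in the table. It was present in 4 of 8 fatty acid genes and 3 of 6 phospholipid genes. TCACNCCAC was found in Hmgcs1, 137 bases before the start, and in Pcyt1a, 116 bases before it, and in 1.23% of all genes. The E-box was found in 5 members, Insig1, Scap, Sc5d, Dhcr7 and Elovl5, and in 6.86% of all genes. These matches describe letters in a short window and were not tested as binding sites.

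**Figure D1:**
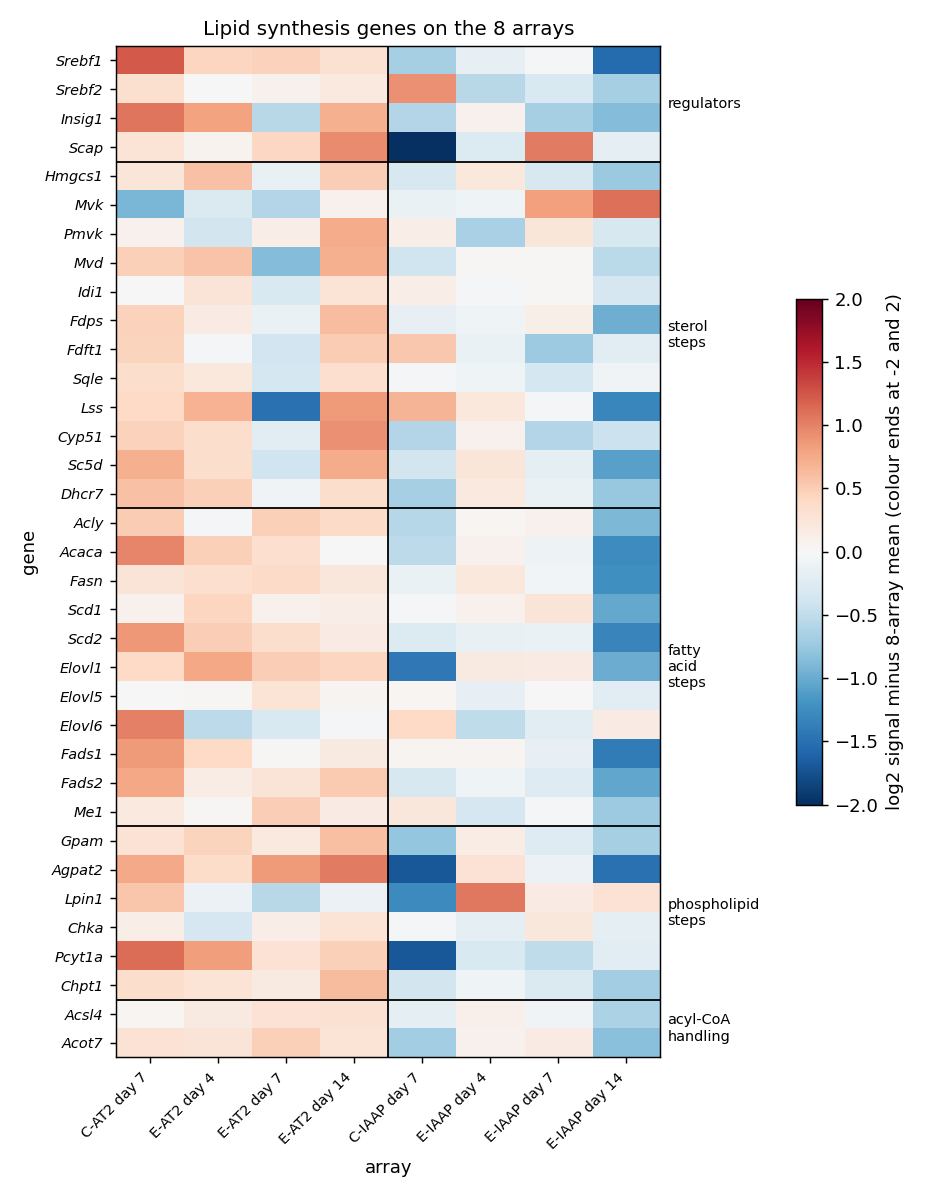
Log2 signal of each of the 35 genes (rows, grouped by step) minus its mean over the 8 arrays, for each array (columns). Colour runs from -2 (blue) to 2 (red); most fatty acid genes are bluest on the E-IAAP day 14 array, and most sterol genes are paler or bluer on the E-AT2 day 7 array than on the E-AT2 arrays of days 4 and 14.

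In experimental mice, the question was whether IAAPs and AT2s differ in lipid synthesis genes. Signals were lower in E-IAAPs for 32 of 35 members, with a median log2 difference of -0.54 against -0.05 over all genes. The 11 AT2 markers were all lower too, with a median of -0.24 and none called, and the macrophage and leukocyte markers differed by medians of 4.11 and 4.22 in the other direction. The part of these cell types in the lipid differences was not tested. No member passed limma's adjusted threshold of 0.05, which 1.31% of all genes passed, nearly all of them with higher signal in E-IAAPs. Without adjustment, 4 members had p under 0.05. The median difference was -0.70 for the regulators, -0.40 for the sterol genes, -0.67 for the fatty acid genes and -0.69 for the phospholipid genes. On each of the 3 days, 21 of 35 members were lower in E-IAAPs than in the E-AT2s of that day, as were 21.2% of all genes and 27.4% of the genes above background on at least 3 arrays. All 3 E-IAAP signals lay below all 3 E-AT2 signals for 14 of 35 members, against 10.7% of all genes and 15% of those above background.

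Among the regulators, Srebf1 encodes the SREBP factor that mainly drives fatty acid genes. Its signal was 10.26, 10.30 and 10.13 in E-AT2s on days 4, 7 and 14, and 9.66, 9.79 and 8.30 in E-IAAPs. The groups did not overlap, and the E-IAAP signal was lowest on day 14. The difference was -0.98 (SE 0.37, limma adjusted p = 0.427). Srebf2, which encodes the factor that mainly drives sterol genes, read 11.41, 11.50 and 11.60 in E-AT2s and 10.85, 11.10 and 10.74 in E-IAAPs. These also did not overlap, with a difference of -0.60 (SE 0.26, limma adjusted p = 0.464). Insig1 read 10.23, 8.87 and 10.13 in E-AT2s and 9.52, 8.76 and 8.56 in E-IAAPs, which overlapped because of the low E-AT2 signal on day 7. Scap overlapped as well, at 7.63, 7.97 and 8.49 in E-AT2s and 7.28, 8.59 and 7.37 in E-IAAPs.

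Of the 11 fatty acid genes, 10 were lower in E-IAAPs by the mean over days. Fasn, fatty acid synthase, read 13.23, 13.27 and 13.12 in E-AT2s and 13.10, 12.84 and 11.67 in E-IAAPs. Scd2, a stearoyl-CoA desaturase, read 13.96, 13.83 and 13.64 in E-AT2s and 13.32, 13.35 and 12.16 in E-IAAPs. For both genes the groups did not overlap, and day 14 was the lowest E-IAAP value. The difference was -0.67 for Fasn (SE 0.36, limma adjusted p = 0.527) and -0.87 for Scd2 (SE 0.32, limma adjusted p = 0.413). Elovl1, which elongates saturated fatty acids to very long chains, read 14.07, 13.78 and 13.73 in E-AT2s and 13.47, 13.45 and 12.30 in E-IAAPs, again without overlap. Elovl5, Fads2 and Me1, which serve polyunsaturated elongation, desaturation and NADPH supply, were the other 3 fatty acid genes without overlap. Scd1, another stearoyl-CoA desaturase, overlapped, at 15.37, 15.02 and 15.07 in E-AT2s and 15.02, 15.19 and 13.91 in E-IAAPs.

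The gap between the populations of experimental mice was larger on day 14 than on the earlier days. The median difference of the 11 fatty acid genes was -0.34 on day 4, -0.39 on day 7 and -1.28 on day 14. No fatty acid gene was past 2-fold lower in E-IAAPs on day 4 or day 7, when 9.33% and 12.5% of all genes were, and 8 of 11 were on day 14, when 11.8% of all genes were. Without day 14, the median over the fatty acid genes was -0.28 instead of -0.67. For the 12 sterol genes the medians were -0.28, 0.16 and -1.17, and 0, 0 and 8 genes were past 2-fold lower. The 6 phospholipid genes had medians of -0.19, -0.47 and -0.98. With 1 array for each population and day, the change in the gap between days was not tested.

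The E-IAAP day 14 array was the lowest of the 6 experimental arrays for 10 of 11 fatty acid genes, against 22.3% of all genes. Elovl6, below background throughout, was the exception. Within E-IAAPs, the median fatty acid gene differed by -1.11 on the log2 scale between day 14 and day 4, and 6 of 11 were past 2-fold lower, against 7.85% of all genes. In E-AT2s the same median was -0.11. With both populations in 1 limma fit, day 14 against day 4 called no gene at all, and 0 of 35 members had an unadjusted p under 0.05, against 1178 of all genes. On the same arrays, the median of the 6 ciliated markers in E-IAAPs was 7.99 on day 4 and 12.2 on day 14. That of the 6 club and secretory markers was 10.8 and 14.6, and that of the AT2 markers 13.9 and 13.4. The part of these other cell types in the lower lipid signals was not tested.

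**Figure D2:**
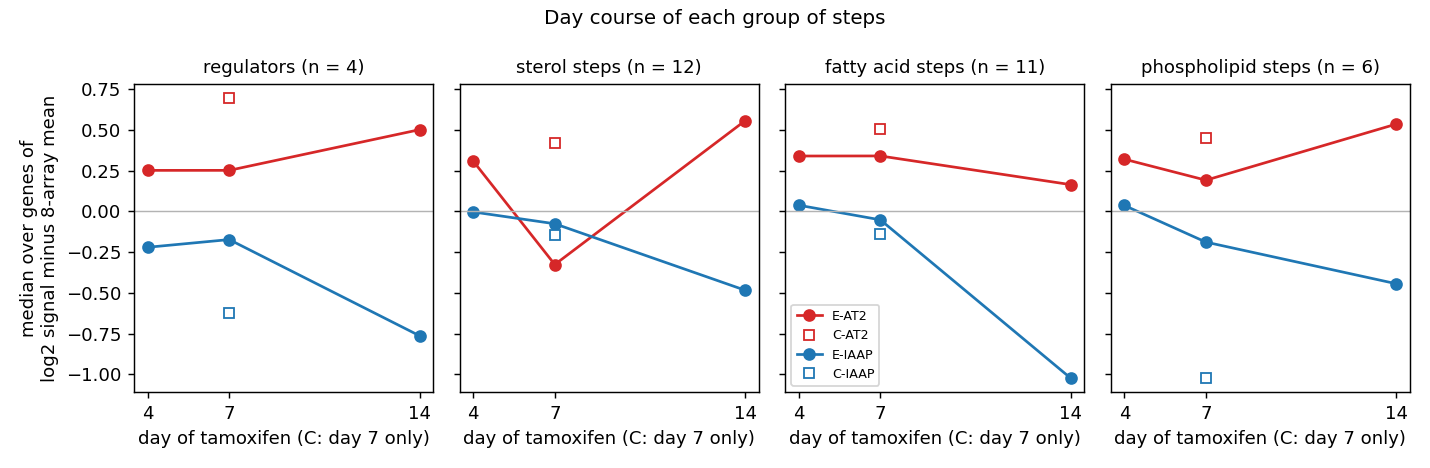
Median over the genes of each group of steps of log2 signal minus the 8-array mean (vertical axis) against day (horizontal axis). Filled circles joined by lines are E-AT2s (red) and E-IAAPs (blue), and open squares are the day 7 controls; sterol genes dip in E-AT2s on day 7, and fatty acid genes are lowest in E-IAAPs on day 14.

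Sterol genes followed another day course, in E-AT2s. Of 12 sterol genes, 11 had a lower signal in E-AT2s on day 7 than on days 4 and 14, all but Pmvk, a kinase of the mevalonate pathway. Of all genes, 33.3% had this course, as had 34.2% of those above background, and of the fatty acid genes 2 of 11 had it. In 10 of the 12 the day 7 signal was also below that of C-AT2s, against 25.5% of all genes. In E-IAAPs, 3 of 12 were lowest on day 7, against 29.8%. The day 7 E-AT2 signal differed from the mean of days 4 and 14 by a median of -0.62 over the sterol genes and 0.03 over the fatty acid genes, and by 0.03 over all genes. Each day was measured on 1 array, so this course has no replicate and was not tested within E-AT2s. Among 9 further genes listed with the sterol steps, 3 had the same course and 6 did not, the same share as over all genes. The 3 were Msmo1 (12.11, 10.99 and 12.21 in E-AT2s on days 4, 7 and 14), Hsd17b7 (9.17, 8.19 and 9.29) and Nsdhl (8.51, 8.02 and 8.60). The other 6 included Idi2, below background on all 8 arrays, and Ggps1 and Dhdds, which are not enzymes of the sterol branch.

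The depth of the day 7 dip differed from gene to gene. Lss, which closes the ring of lanosterol, read 8.71, 6.53 and 8.87 in E-AT2s on days 4, 7 and 14 and 8.41 in C-AT2s, and its day 7 signal was below the background level of 7.05. Mvd, which makes isopentenyl diphosphate, read 10.11, 8.67 and 10.25, with 10.02 in C-AT2s. Sc5d, a late desaturase of the sterol nucleus, read 9.84, 9.09 and 10.22, with 10.19 in C-AT2s. These 3 genes were past 2-fold lower on day 7 in E-AT2s than in C-AT2s, as were 10.1% of all genes. Hmgcs1, which makes HMG-CoA, read 14.09, 13.37 and 14.00, with 13.75 in C-AT2s, a shallower dip. Cyp51, which removes a methyl group from lanosterol, read 10.19, 9.61 and 10.74, with 10.29 in C-AT2s. Insig1, a regulator whose transcription responds to SREBP, shared the course, at 10.23, 8.87 and 10.13 with 10.50 in C-AT2s. Of 7 other probes of sterol genes that were above background on at least 3 arrays, 6 were also lowest on day 7.

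Between IAAPs and AT2s, sterol genes overlapped throughout. None of the 12 had all E-IAAP signals below all E-AT2 signals, against 10.7% of all genes. Hmgcs1, Fdft1, Cyp51 and Dhcr7, 4 of the 12, were lower in E-IAAPs on each of the 3 days, against 21.2% of all genes. Mvk, mevalonate kinase, was higher on each day, at 8.28, 9.18 and 9.46 in E-IAAPs against 8.08, 7.78 and 8.45 in E-AT2s, a direction held by 15.5% of all genes. By the brightest probes, it was the only sterol gene with that direction. A second probe of Mvk, above background on 1 array only, was lower in E-IAAPs on each day, with a difference of -1.22.

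**Figure D3:**
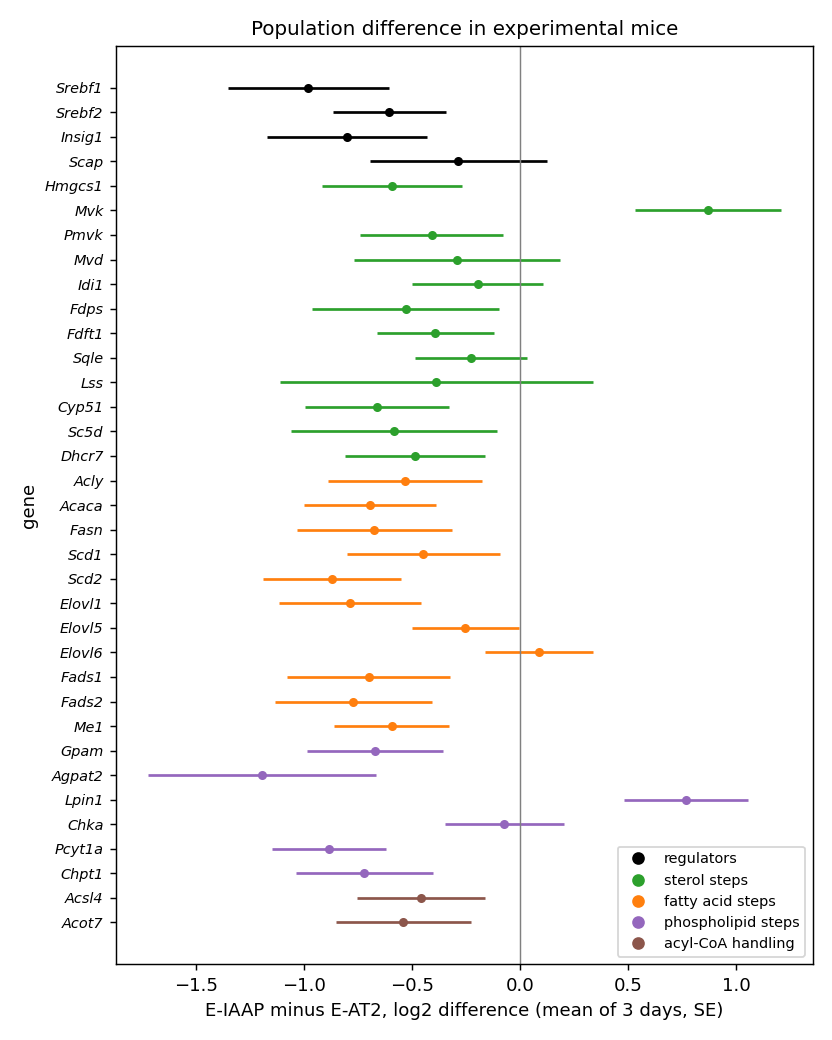
Log2 difference between E-IAAPs and E-AT2s for each of the 35 genes (points, coloured by step), with the standard error of the limma fit over 3 days (bars). 32 points lie left of 0, and Mvk, Lpin1 and Elovl6 lie right of it.

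Of the 6 phospholipid genes, 5 were lower in E-IAAPs by the mean over days and 1 was higher. Pcyt1a encodes the CTP-dependent enzyme that sets the pace of phosphatidylcholine synthesis. It read 9.15, 8.60 and 8.79 in E-AT2s and 8.01, 7.80 and 8.09 in E-IAAPs, without overlap, a difference of -0.88 (SE 0.26, limma adjusted p = 0.337). Gpam and Agpat2, which add the fatty acids to glycerol phosphate, and Chpt1, which joins choline to diacylglycerol, were also lower without overlap. Lpin1, a phosphatidate phosphatase, went the other way. Lpin1 read 7.55, 7.10 and 7.54 in E-AT2s and 8.72, 7.82 and 7.96 in E-IAAPs, without overlap. The difference was 0.77 (SE 0.29, limma adjusted p = 0.416), and 8.46% of all genes were higher without overlap. On a second probe of Lpin1 the signals overlapped, at 7.22, 7.88 and 7.31 in E-AT2s and 8.44, 7.62 and 7.26 in E-IAAPs, a difference of 0.30. Chka, choline kinase, overlapped and had a difference of -0.07. Both genes of acyl-CoA handling, Acsl4 and Acot7, were lower in E-IAAPs without overlap.

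In control mice on day 7, IAAPs had the lower signal for 27 of 35 members, and the median difference was -0.78 against 0.09 over all genes. With arrays centred on housekeeping genes, 33 of 35 were lower, a setting that moved the median of all genes by -0.51. Between the same arrays, 10 of 19 alveolar macrophage markers and 5 of 6 leukocyte markers were called higher in C-IAAPs, with medians of 3.01 and 4.09. The club and secretory, ciliated and AT1 markers had medians of 1.68, 2.55 and 1.06, and 9 of 11 AT2 markers had the lower signal, with a median of -0.43. The part of these markers' cell types in the lipid differences was not tested. Pcyt1a was the 1 member that passed limma's threshold, which 13.9% of all genes passed, 7.77% in the lower direction. It read 9.44 in C-AT2s and 6.61 in C-IAAPs, a difference of -2.83 (SE 0.45, limma adjusted p = 0.0128). The C-IAAP signal was under that array's background of 8.67, so the fold is a bound: Pcyt1a was at least 1.70-fold lower in C-IAAPs. By measured signal, 15 of 35 members were past 2-fold lower, against 22.8% of all genes. With signals under background raised to the background level of their array, 11 of 35 were, and Scap, Agpat2, Lpin1 and Pcyt1a were not. No share of all genes is given with signals so raised, and the 22.8% is not a background for that count. Srebf1 read 11.07 in C-AT2s and 9.17 in C-IAAPs (adjusted p = 0.131 by limma), and Elovl1 read 13.68 and 11.86 (adjusted p = 0.106 by limma). A second probe of Elovl1 differed less, at 13.15 and 12.89.

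Experimental and control mice were then compared within each population. The study reports that the wild-type Fgfr2b locus predominated in E-IAAPs. At its later time point the mutated form was no longer detected in them. In IAAPs, E against C therefore compares genotypes of mice, and not cells with and without the deletion. In IAAPs, 18 of 35 members were higher and 17 lower in E than in C, with a median of 0.01. These directions depended on the probe: of 34 further probes of members above background, 14 had the sign of the brightest probe. With arrays centred on housekeeping genes, 6 of 35 were lower, and that setting moved the median of all genes by 0.40. By limma, 4 members passed the threshold, against 17.1% of all genes (9.35% higher and 7.75% lower). At 4 of 35, the members' count was below that background. Srebf2 read 12.32 in C-IAAPs and 10.85, 11.10 and 10.74 in E-IAAPs, a difference of -1.42 (SE 0.33, limma adjusted p = 0.0315). Every E-IAAP signal was below the control, all were above background, and a second probe read 11.31 against 10.54, 10.58 and 9.85.

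The other 3 were higher in E-IAAPs, by 2.49 for Scap (SE 0.61, limma adjusted p = 0.0363), 1.78 for Lpin1 (SE 0.46, limma adjusted p = 0.042) and 1.36 for Pcyt1a (SE 0.37, limma adjusted p = 0.0472). Their C-IAAP signals were 5.26, 6.39 and 6.61, all under the background of 8.67 on that array. The E-IAAP means of 7.75, 8.17 and 7.97 were also under 8.67, so no fold can be given for them. None of the 4 calls remained when any 1 experimental day was left out, when day was a term of the fit, or when only the IAAP arrays were fitted. Srebf2 differed by -1.32 to -1.53 in those fits. It also missed limma's threshold with housekeeping centring, at -1.02 (adjusted p = 0.144), and with the mean of its probes, at -1.20 (adjusted p = 0.0714), within a range of adjusted p from 0.00318 to 0.144 over its alternatives.

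**Figure D4:**
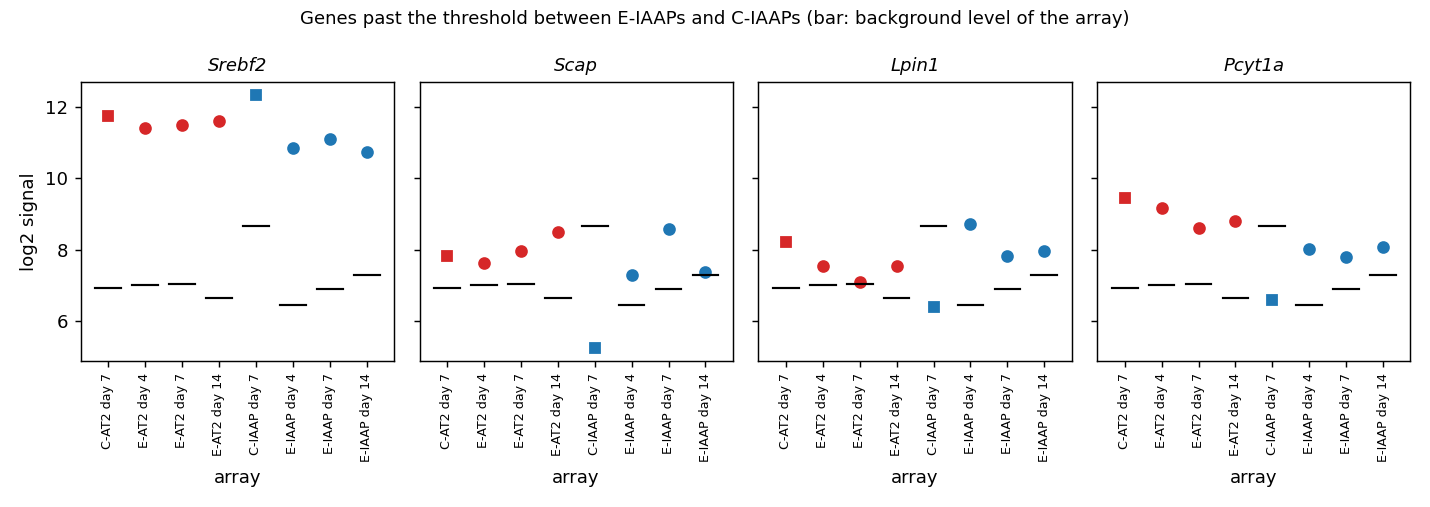
Log2 signal (vertical axis) of Srebf2, Scap, Lpin1 and Pcyt1a on each of the 8 arrays (horizontal axis), with C arrays as squares, E arrays as circles, AT2s in red and IAAPs in blue. The black bar at each array is its background level; in C-IAAPs only Srebf2 lies above it.

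In AT2s, 21 of 35 members were lower in E than in C, with a median of -0.23. With arrays centred on housekeeping genes, 28 of 35 were lower. Limma called none of them, and none of all genes, at the adjusted threshold, while 1 member (Elovl6, below background) and 1609 of all genes had an unadjusted p under 0.05. By the brightest probe, C-AT2s lay above all 3 E-AT2s for 13 of 35 members, against 25.2% of all genes. Among them were Srebf1, Srebf2, Scd2, Acaca, Acly and also Elovl6, which was below background. A second probe of Srebf2 did not show it, at 11.14 in C-AT2s and 11.20 in E-AT2s on day 7. Srebf1 read 11.07 in C-AT2s against 10.13 to 10.30 in E-AT2s. Acaca, acetyl-CoA carboxylase, read 11.40 against 10.91, 10.77 and 10.42. Its further probes went either way: 1 read 10.53 in C-AT2s and 10.69 in E-AT2s on day 7, and another 10.22 against 9.18 to 9.75. Acly, which makes cytosolic acetyl-CoA from citrate, read 11.93 against 11.39, 11.90 and 11.81, so that its day 7 value was close to the control. Whether the genotype difference differed between IAAPs and AT2s was tested as an interaction. No member passed limma's adjusted threshold there, which 4.37% of all genes passed, and 4 had an unadjusted p under 0.05.

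Of 85 other lipid genes measured, 3 (3.53%) were called between the experimental populations, each with the higher signal in IAAPs, against 1.31% of all genes. Abcg1, a cholesterol exporter abundant in macrophages, read 13.5 to 13.7 in E-IAAPs and 6.14 to 8.88 in E-AT2s, a difference of 5.88 (SE 0.60, limma adjusted p = 0.0277). In control mice it read 13.24 in C-IAAPs and 7.58 in C-AT2s (limma adjusted p = 0.0251). Agpat4 was higher by 2.74 (SE 0.25, limma adjusted p = 0.0213), and Hacd4 was below background in both groups. On the same arrays, 14 of 19 alveolar macrophage markers and 6 of 6 leukocyte markers were called higher in E-IAAPs, with medians of 4.11 and 4.22, and their part in these differences was not tested. Lpcat1, which remodels phosphatidylcholine for surfactant, read 13.44, 13.30 and 13.16 in E-AT2s and 13.10, 12.71 and 11.80 in E-IAAPs. Its signals did not overlap, with a difference of -0.77 (SE 0.32, limma adjusted p = 0.449). Abca1, another cholesterol exporter, differed by 0.67 (SE 0.42, limma adjusted p = 0.582).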

How the data were processed

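The deposited values are log2 spot signals of 1-colour mouse arrays with 62976 spots, which the authors background-corrected with normexp and quantile-normalised between arrays with limma (version not given in the sources used here). Spots were named through the platform annotation and RefSeq, which gave 43941 spots 1 symbol, and the brightest spot stood for each gene. Group differences were fitted here over all 24306 genes with limma 3.58.1 in R 4.3.3 (lmFit, eBayes, Benjamini-Hochberg, adjusted p under 0.05). E-IAAPs against E-AT2s used the 6 experimental arrays with day as a block, and comparisons with controls used all 8 arrays in 4 groups. Past 2-fold means a log2 difference above 1 with no test. The number of arrays limits the precision. Python 3.11.15 was used for counts and promoter searches, and the fits were tested on simulated data. All members may be named, as may other lipid genes past the threshold, and Lpcat1 and Abca1. The AT2 markers and further sterol genes named for their day course were picked after the data were seen. Members and lists were chosen with earlier results of these data known.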

Additional observations from a re-analysis of the deposited data

Results flagged for a closer look

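For 3 members, by the brightest probe, every E-IAAP signal lay on one side of the C-IAAP signal and every E-AT2 signal on the opposite side of the C-AT2 signal. A second probe of Elovl5 was higher in E in both populations. It read 8.90 in C-IAAPs and 10.09 to 10.78 in E-IAAPs, and 10.28 in C-AT2s and 10.94 to 11.25 in E-AT2s. A second probe of Lpin1 read 7.46 in C-AT2s, within the 7.22 to 7.88 of E-AT2s. The genotype difference in IAAPs minus that in AT2s was 2.59 for Lpin1 (SE 0.65, limma adjusted p = 0.0723), 1.94 for Pcyt1a (SE 0.52, limma adjusted p = 0.0829) and -0.30 for Elovl5 (SE 0.46, limma adjusted p = 0.737), so none passed the threshold.

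For 4 of 85 other lipid genes (4.71%) the same difference passed the threshold, a share close to the 4.37% of all genes. It was 2.36 for Ggps1 (SE 0.45, limma adjusted p = 0.0402), 3.06 for Acss2 (SE 0.54, limma adjusted p = 0.0338), 2.997 for Pcyt1b (SE 0.55, limma adjusted p = 0.0369) and 2.48 for Cds1 (SE 0.52, limma adjusted p = 0.0494). All 4 had C-IAAP signals under the background of that array (6.77, 5.73, 1.78 and 4.95 against 8.67), and Pcyt1b was below background on all 8 arrays.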

How the results depend on the processing

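The members called kept their direction in 49 of 49 alternative values. This is no independent support, since the alternatives reuse the same control arrays. The Pcyt1a difference between C-IAAPs and C-AT2s, for instance, stayed at -2.83 whichever experimental day was left out. For C-IAAPs against C-AT2s, the count of 1 member became 2 with housekeeping centring and 3 with the mean of all probes, with only genes above background, and with limma-trend. For E-IAAPs against C-IAAPs, the count of 4 became 2 with median centring and 0 with day as a term or with only IAAP arrays, and it was 0 to 0 when 1 experimental day was left out. In this comparison, the mean of all probes put Chka and Chpt1 in the place of Srebf2 and Lpin1, and median centring lost Lpin1 and Pcyt1a. Each of these counts and calls rests on the single C-IAAP array. For E-IAAPs against E-AT2s no alternative called a member, while the count of all genes went from 318 to 588 with limma-trend, 483 without the day block or with all 8 arrays, and 0 when any day was left out. The count of all genes for C-IAAPs against C-AT2s went from 3374 to 1640 with day as a term and 1270 to 1873 without a day. For E-IAAPs against C-IAAPs it went from 4157 to 1407 with day as a term, 1402 to 2442 without a day and 2613 with only IAAP arrays. Day 14 against day 4 called 0 genes, and 12 with limma-trend. Alternatives chosen after seeing the data kept the sterol count at 11 and the fatty acid count at 10, and housekeeping centring took the 21 members lower on each day to 17. Of 34 further probes of members above background, 34 had the same sign between E-IAAPs and E-AT2s, 27 between C-IAAPs and C-AT2s, and 14 between E-IAAPs and C-IAAPs. Replicate numbers pair no samples, since each group has 1 array, and E-IAAPs were paired with E-AT2s by day. Without the day block, 0 members were called. Signals under background are bounds.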
